A study of Mus musculus with 3 samples.

Results

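The BCL2 family survival and death genes were described as a set of 10 listed genes of the 32285 in the count matrices: Bcl2, Bcl2l1, Mcl1, Bcl2a1b, Bcl2a1d, Bax, Bcl2l11, Bbc3, Pmaip1 and Bcl2l14. They were chosen by name. Each was followed in 7 groups of cells, called gates here, which were set by the UMIs of marker genes and by barcode totals. A UMI is a molecular tag that counts 1 captured RNA molecule.

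The study profiled CD45+ immune cells of subcutaneous B16F10 tumours, a mouse melanoma line, in C57BL/6 mice with droplet single-cell RNA sequencing (10x Genomics 3' chemistry, version 3.1). Every mouse received an intravenous transfer of Pmel-1 cytotoxic T lymphocytes, T cells specific for the melanocyte protein gp100 that had been activated in vitro, on day 9 after the tumour cells were given. Tumours were taken 3, 7 or 14 days after the transfer, and equal numbers of CD45+ cells from 3 mice were pooled at each time. There was 1 library per day, and mice without transferred cells were not analysed here. The day after transfer therefore cannot be told apart from the age of the tumour or from the library, and the labels name no mark of the transferred T cells that these counts could read. Magnetic beads are named for the CD45+ selection in the series design, a cell sorter in the sample protocol. Where the labels should give a cell type they give the strain.

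Proteins of the BCL2 family decide whether the outer mitochondrial membrane stays sealed. BCL2, BCL-xL (gene Bcl2l1), MCL1 and A1 (the Bcl2a1 genes) hold it closed, BAX opens it and lets cytochrome c out to start caspase activation, and BH3-only proteins such as BIM (Bcl2l11), PUMA (Bbc3) and NOXA (Pmaip1) bind the survival proteins and release the killers. Resting lymphocytes are known to depend on BCL2 kept up under cytokines of the IL-7 and IL-15 type, neutrophils on the short-lived MCL1, and A1 is a known target of NF-kappaB in activated cells.

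The gates were CD8 T cells (Cd8a and Cd8b1 at least 2 UMIs together, Cd3e and Cd3d at least 1), NK cells (Ncr1 and Klrb1c at least 2, Cd3e and Cd3d 0), neutrophils (S100a8 and S100a9 at least 20), monocytes (Ly6c2 and Chil3 at least 3 each) with a Cxcl9 count of 0 or of at least 3, macrophages with at least 5 UMIs of Arg1, and type 2 dendritic cells, written cDC2, with at least 2 UMIs of Cd209a. Cells had at least 1500 UMIs, or 1000 for neutrophils. At days 3, 7 and 14 the libraries held 3656, 3038 and 3549 barcodes, of which 1534, 1592 and 1594 passed a gate and 60, 48 and 87 passed more than 1. Gates held 75 to 517 cells per library, and the median UMIs per cell ran from 2218.5 in day 3 neutrophils to 16155 in day 3 CD8 T cells.

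Marker genes that the gates did not use were checked against the names of the gates. In 2 gates the dendritic list summed above the list of the named type in some or all libraries. A list of 7 T cell genes summed to 8297, 12822 and 11775 CPM (UMIs of a gene or list per 1000000 UMIs of the gate) in CD8 T cells at days 3, 7 and 14, and all 7 genes were detected. The neutrophil list was at 9661, 9588 and 12282 CPM in the neutrophil gate. The NK list was at 12280, 11996 and 10082 CPM in NK cells, and the dendritic list at 23843, 24897 and 25257 CPM in cDC2. The Arg1 macrophages held 4000 to 5383 CPM of the macrophage list but also 7272 to 9687 CPM of the dendritic list, so their name rests on Arg1 and the complement genes together. Cxcl9-high monocytes held 7385, 6881 and 6409 CPM of the monocyte list and 6339, 8293 and 9153 CPM of the dendritic list, which was the larger at days 7 and 14, and Cxcl9-zero monocytes 3186, 4676 and 4660 CPM of the latter. T cell genes were present at lower levels elsewhere, at 1843, 1934 and 1556 CPM in NK cells. They were at 906.5, 993.2 and 205.4 CPM in neutrophils and at 1024.6, 301.8 and 261.1 CPM in Arg1 macrophages. Melanoma genes reached at most 19.9 CPM. Erythroid genes were at 1136 CPM in day 3 Arg1 macrophages and at most 3.10 CPM in every other gate and library.

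Some barcodes occurred in more than 1 library: 666, 488 and 544 at days 3, 7 and 14, or 18.2%, 16.1% and 15.3%. Among gated cells 98, 120 and 54 barcodes were shared, and in 6, 4 and 4 of them the copy in another library was the larger. Shared barcodes were deep cells, with a median of 44740.5 UMIs at day 3 against 753 in the copy. They held 38.4%, 37.2% and 20.1% of the CD8 T cell UMIs and 25.8%, 10.6% and 5.47% of those of Arg1 macrophages, and a single shared barcode held 13.5% of the day 3 neutrophil UMIs. Results that changed without them are given with and without them below.

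Intervals on single libraries are exact Poisson 95% intervals and cover counting error only. A day difference is a ratio of 2 libraries with an exact conditional interval and no test, counted as past the size rule with at least 20 UMIs, a change of at least 1.5-fold and an interval that excludes 1. Gates were compared over the 3 libraries with edgeR's quasi-likelihood test on summed UMIs of 10127 genes, with the day as a block and Benjamini-Hochberg adjustment at 0.05. With the day as a block, those p-values measure how far differences between gates varied over these 3 libraries. All gates shared 1 estimate of spread, and no day had a replicate pool.

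Survival genes differed in level between lymphoid and myeloid gates, though not each of them along that line. NK cells and CD8 T cells were the gates with the most Bcl2, neutrophils and the other myeloid gates had several times more Mcl1, and the A1 genes were lowest in NK cells but higher on average in CD8 T cells than in Cxcl9-zero monocytes, at a sum of 686 against 567 CPM. The plot of the 5 survival genes by gate shows this order.

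**Figure D1:**
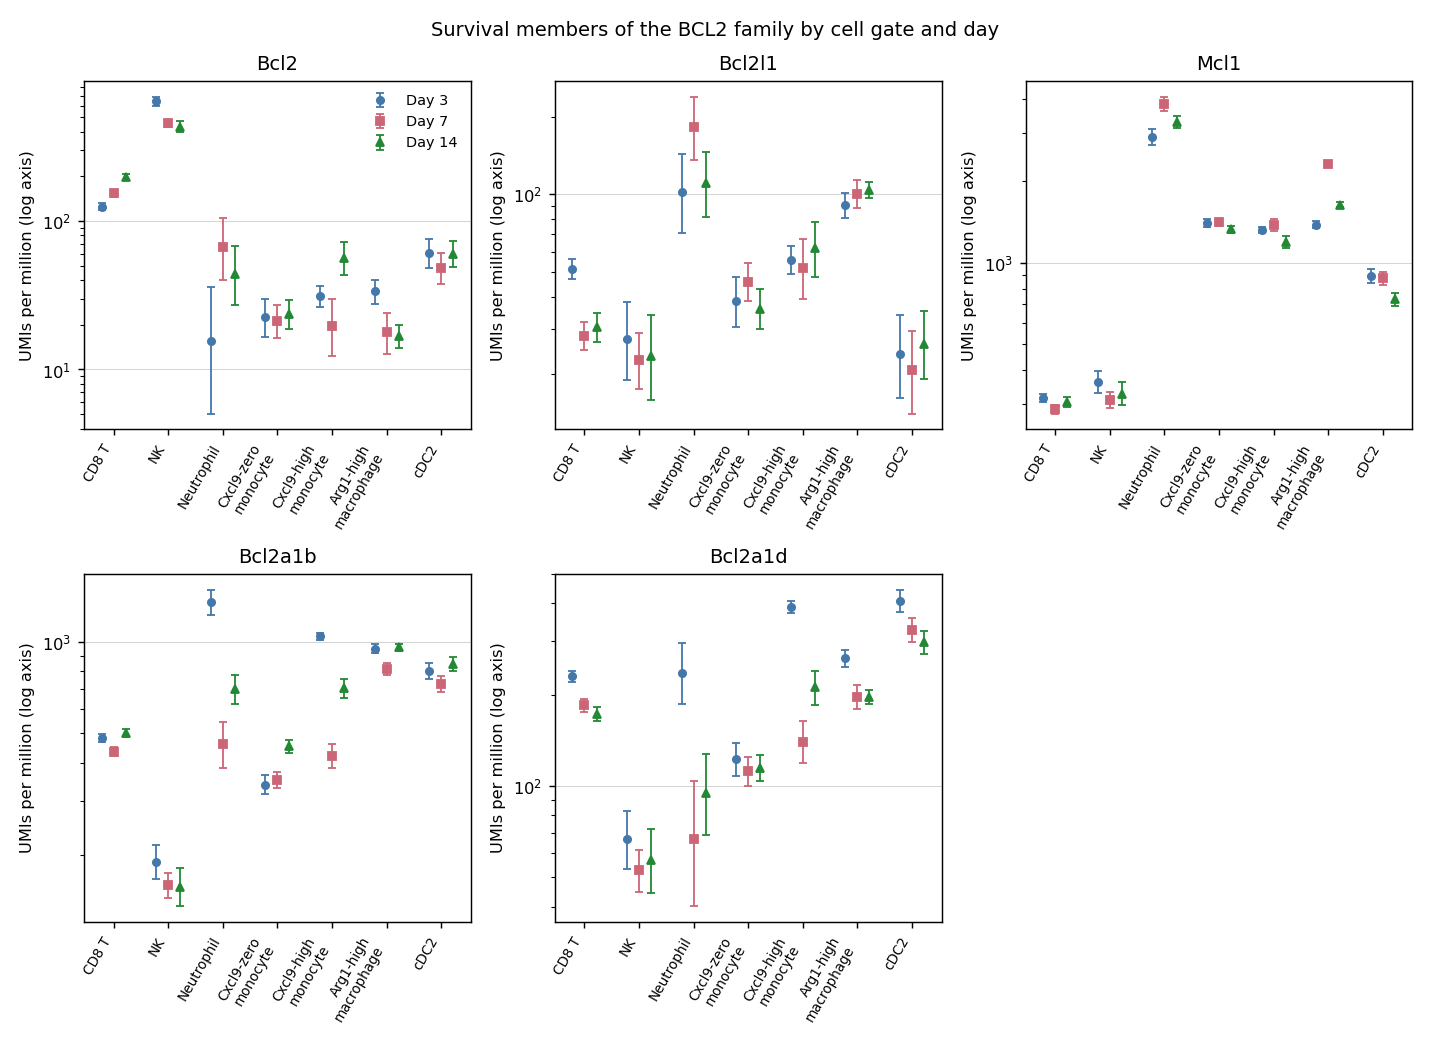
CPM (log axis) for the survival genes Bcl2, Bcl2l1, Mcl1, Bcl2a1b and Bcl2a1d in the 7 gates, with 1 point per library (day 3, 7 and 14) and 95% Poisson bars. Bcl2 sits highest in NK cells in all 3 libraries, Mcl1 highest in neutrophils, and Bcl2a1b and Bcl2a1d lowest in NK cells in every library.

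Bcl2, the founding survival gene, was at 641 (597 to 687), 457 (432 to 482) and 433 (397 to 471) CPM in NK cells at days 3, 7 and 14. In CD8 T cells it was at 125 (118 to 133), 154 (146 to 162) and 199 (189 to 209). The 2 lymphoid gates did not overlap, and each was above every myeloid gate in all 3 libraries. The mean was 510 ± 114 (SD, n = 3 libraries) in NK cells, 159 ± 37.3 in CD8 T cells and 56.4 ± 7.17 in cDC2. Neutrophils, Cxcl9-high monocytes, Arg1 macrophages and Cxcl9-zero monocytes followed with means of 42.1, 35.7, 22.7 and 22.4, and no neighbours among these were ordered alike in all 3 libraries. Against NK cells, CD8 T cells had 3.19-fold less Bcl2 (95% interval 2.38 to 4.27, edgeR adjusted p = 2.07e-06) and 6.15-fold more than the mean of the 5 myeloid gates (4.87 to 7.77, edgeR adjusted p = 5.27e-12). cDC2 had 3.46-fold more than Cxcl9-zero monocytes (2.30 to 5.19, edgeR adjusted p = 5.61e-05).

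The share of cells with a Bcl2 UMI gave the same order at equal depth. With each cell thinned to 1000 UMIs, 49.0%, 40.9% and 40.5% of NK cells held a Bcl2 UMI, against 16.7%, 15.3% and 20.96% of CD8 T cells. Before thinning the shares were 88.5%, 85.3% and 82.3% in NK cells and 67.7%, 66.9% and 76.9% in the deeper CD8 T cells. In neutrophils, at median depths of 2218.5, 2444.5 and 2340 UMIs, 3, 4 and 5 cells held the 5, 19 and 20 Bcl2 UMIs of the gate, and 1 cell held 12 of the 19 at day 7 and 11 of the 20 at day 14. After thinning 1.0%, 1.2% and 1.4% of neutrophils held one, a level that free RNA or a few other cells in the gate could also give, which was not tested.

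Bcl2l1, which encodes BCL-xL, had another order. It was highest in neutrophils, at 102, 182 and 110 CPM, and in Arg1 macrophages, at 90.6, 101 and 104. Cxcl9-high monocytes followed at 55.7, 51.8 and 61.7 and Cxcl9-zero monocytes at 38.5, 45.8 and 36.0. CD8 T cells were at 51.3, 28.1 and 30.5, and NK cells and cDC2 lay between 20.7 and 27.4. Neutrophils exceeded the mean of the 4 other myeloid gates 4.08-fold (3.01 to 5.55, edgeR adjusted p = 5.92e-08), and Arg1 macrophages exceeded Cxcl9-zero monocytes 3.61-fold (2.71 to 4.81, edgeR adjusted p = 6.03e-07). Both held under each of the 12 alternative fits. The difference between CD8 T and NK cells, 1.49-fold more in CD8 T cells (edgeR adjusted p = 0.0444), was lost without day 3, day 7 or day 14 (edgeR adjusted p = 0.155, 0.109 and 0.102) and without shared barcodes (edgeR adjusted p = 0.199).

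Mcl1, whose survival protein turns over fast, was at 2909, 3854 and 3296 CPM in neutrophils. The 4 other myeloid gates lay between 732 and 2315 CPM, with cDC2 the lowest of them at 890, 875 and 732. NK cells were at 361, 311 and 328 and CD8 T cells at 316, 288 and 306. Every neutrophil value was above every value of the other gates, and every myeloid value was above every lymphoid one. Mcl1 was 6.79-fold lower in CD8 T cells than in the myeloid gates (5.56 to 8.29, edgeR adjusted p = 2.22e-13), and neutrophils had 3.44-fold more than the other myeloid gates (2.96 to 4.005, edgeR adjusted p = 6.37e-12). No difference between CD8 T and NK cells was found (1.06-fold lower in CD8 T cells, interval from 1.31-fold lower to 1.17-fold higher, edgeR adjusted p = 0.691). A list of 15 immediate early genes, which rise within minutes of stimulation or tissue dissociation, had 14 members lower in CD8 T cells than in myeloid gates and 12 higher in neutrophils than in the other myeloid gates. Their part in the Mcl1 differences was not tested.

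The A1 survival protein is encoded in mice by near-identical gene copies on chromosome 9, so it matters how far Bcl2a1b (chr9:89199273-89207838, GRCm38) and Bcl2a1d (chr9:88723288-88731850) can be told apart. Their transcripts were identical at 810 of 817 aligned bases, or 99.1%. Of all 90-base windows, 36.1% of those of Bcl2a1b and 61.6% of those of Bcl2a1d occurred letter for letter in another A1 gene, and in the last 300 bases, where 3' reads fall, 50.2% and 89.6% did. The 2 promoter windows were identical at 247 of 350 aligned positions, or 70.6%. The stretch before the starts that aligns is shown to set the 2 copies side by side. It lies at chr9:89199023-89199228 on the plus strand and ends 44 bases before the start site for Bcl2a1b. For Bcl2a1d it lies at chr9:88731851-88732050 on the minus strand and ends at the start site. Sequences are from RefSeq on GRCm38.p6, 5' to 3', and capitals mark the bases that differ or are missing in the other gene.
Bcl2a1b: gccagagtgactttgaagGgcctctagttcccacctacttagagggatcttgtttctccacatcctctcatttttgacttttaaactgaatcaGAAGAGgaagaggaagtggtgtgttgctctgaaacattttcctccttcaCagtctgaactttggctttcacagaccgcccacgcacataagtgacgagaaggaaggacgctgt
Bcl2a1d: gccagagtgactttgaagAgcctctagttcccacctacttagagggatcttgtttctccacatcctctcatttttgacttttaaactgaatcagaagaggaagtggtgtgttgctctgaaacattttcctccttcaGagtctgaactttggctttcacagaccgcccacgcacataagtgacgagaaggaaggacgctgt
They were identical at 198 of 206 aligned positions, or 96.1%.

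Reads from shared stretches of these genes can be lost or assigned to a copy, so the split between Bcl2a1b and Bcl2a1d is uncertain, as is Bcl2a1a, another copy that is no member of the set. Their sum is also given where it bears on a result. A search of both strands of the 300-base promoter windows for the NF-kappaB motif, by its consensus, found no match in either A1 gene. Matches were found in 1 of 3 Bcl2l1 windows and 1 of 3 Bbc3 windows, and 4.51% of all 32851 promoter windows held one. The letters TTCNNNGAA, the core bound by STAT factors, matched in none of the members' windows and in 8.30% of all. An absent match says only that these letters are not in the window. A window was found for 9 of the 10 members, all but Pmaip1.

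Bcl2a1b was at 482, 436 and 503 CPM in CD8 T cells and at 189, 158 and 157 in NK cells. Bcl2a1d was at 230, 184 and 172 in CD8 T cells and at 66.8, 52.7 and 57.1 in NK cells. The 2 gates did not overlap for either gene. The fit gave CD8 T cells 3.07-fold more Bcl2a1b (2.09 to 4.51, edgeR adjusted p = 8.19e-05) and 3.60-fold more Bcl2a1d (2.35 to 5.51, edgeR adjusted p = 5.80e-05) than NK cells. Bcl2a1a differed in the same direction, by 6.11-fold (edgeR adjusted p = 0.012), but CD8 T cells held only 5.04 to 23.2 CPM of it.

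Among myeloid gates Bcl2a1b was lowest in Cxcl9-zero monocytes, at 340, 351 and 454 CPM. Bcl2a1b was at 949, 812 and 958 in Arg1 macrophages and at 800, 728 and 845 in cDC2. Bcl2a1d was at 408, 327 and 298 in cDC2, at 264, 197 and 196 in Arg1 macrophages and at 122, 112 and 115 in Cxcl9-zero monocytes. Over Cxcl9-zero monocytes, Arg1 macrophages had 3.32-fold more Bcl2a1b (2.28 to 4.83, edgeR adjusted p = 3.91e-05) and 2.34-fold more Bcl2a1d (1.58 to 3.49, edgeR adjusted p = 0.00203). cDC2 had 2.67-fold more Bcl2a1b (1.83 to 3.88, edgeR adjusted p = 0.000293) and 3.51-fold more Bcl2a1d (2.35 to 5.25, edgeR adjusted p = 4.47e-05). CD8 T cells had 1.66-fold less Bcl2a1b than the myeloid mean (edgeR adjusted p = 0.00317), and for Bcl2a1d the difference was not past the threshold (1.06-fold lower, interval from 1.44-fold lower to 1.27-fold higher, edgeR adjusted p = 0.728).

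Within the Ly6c2 and Chil3 monocytes, cells rich in Cxcl9, a chemokine induced by interferon, carried more A1 than cells without it. Bcl2a1b was at 1042 (1013 to 1072), 422 (385 to 462) and 703 (654 to 754) CPM in the Cxcl9-high gate, against 340, 351 and 454 in the Cxcl9-zero gate. Bcl2a1d was at 389 (371 to 408), 140 (119 to 164) and 211 (185 to 240), against 122, 112 and 115. Both genes were higher in the Cxcl9-high gate in all 3 libraries, by the smallest margin at day 7. The fitted differences were 2.16-fold for Bcl2a1b (1.48 to 3.15, edgeR adjusted p = 0.0231) and 2.23-fold for Bcl2a1d (1.49 to 3.36, edgeR adjusted p = 0.0295). Neither passed without day 3 (edgeR adjusted p = 0.0585 and 0.104) or without day 14 (edgeR adjusted p = 0.157 and 0.233). In this comparison 2 of 10 members were called higher and 0 lower, where 1.44% and 1.1% of all genes tested were. The 2 were the near-identical copies Bcl2a1b and Bcl2a1d, whose reads are not fully told apart, so they are not separate results. The median log2 difference was 0.41 over the members and -0.01 over all genes. The dendritic list was also higher in the Cxcl9-high gate in all 3 libraries, at 6339 to 9153 against 3186 to 4676 CPM, mostly through Cd74 and H2-Ab1. The part of this list in the A1 difference was not tested.

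Bax, the pore-forming killer, was the most even member. Its mean ran from 194 ± 35.9 (SD, n = 3) CPM in NK cells to 372 ± 42.4 in Arg1 macrophages. The range of each gate over the 3 libraries overlapped that of its neighbour in the order. Values were 276, 202 and 245 in CD8 T cells, 228, 157 and 196 in NK cells and 360, 338 and 420 in Arg1 macrophages. CD8 T cells had 1.34-fold less than the myeloid gates (edgeR adjusted p = 0.000309) and Arg1 macrophages 1.57-fold more than Cxcl9-zero monocytes (edgeR adjusted p = 0.000258). The 1.26-fold excess of CD8 T over NK cells (edgeR adjusted p = 0.0297) was lost without day 7 or day 14 (edgeR adjusted p = 0.190 and 0.157) and without shared barcodes (edgeR adjusted p = 0.0669). No day ratio of Bax was past the size rule in any gate.

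**Figure D2:**
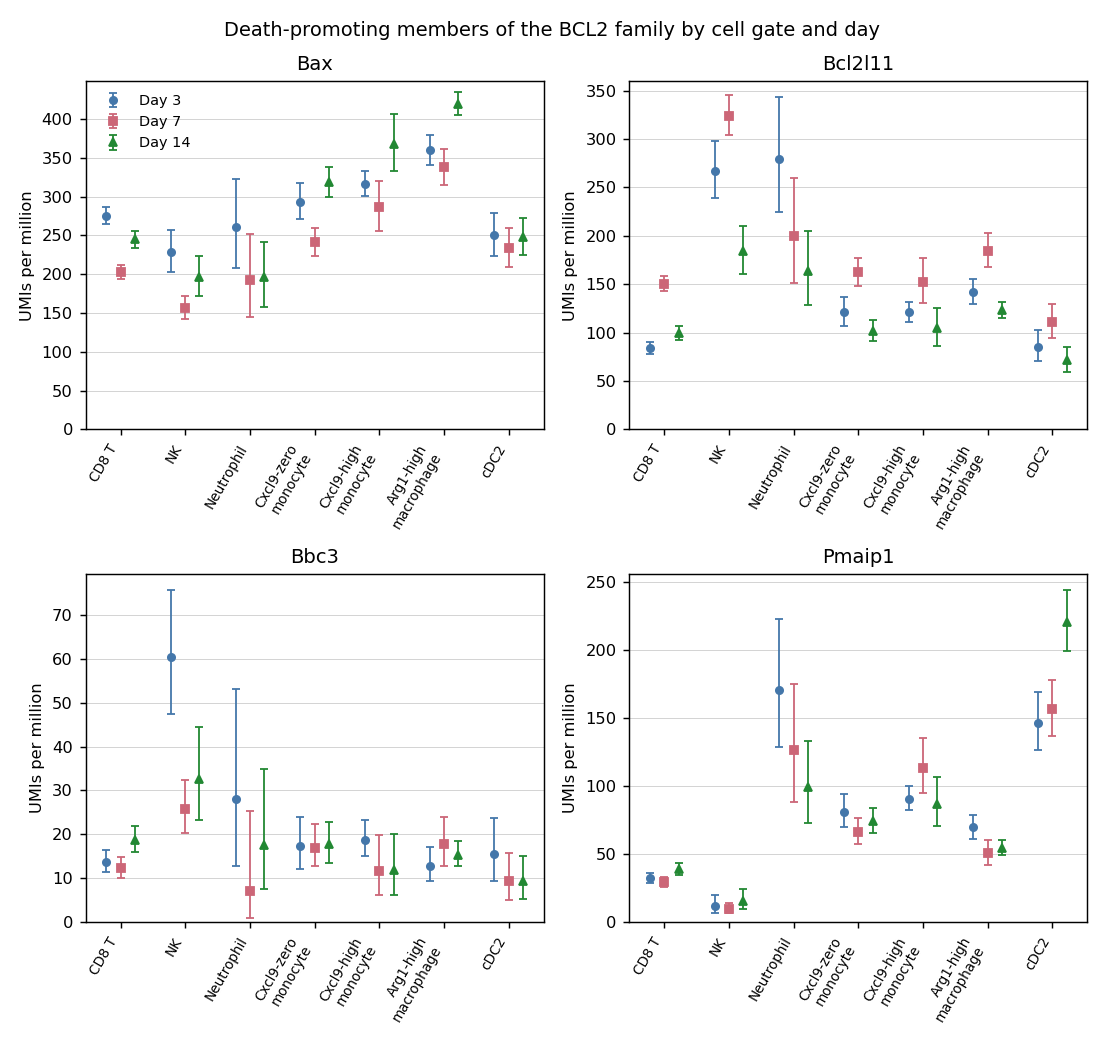
CPM (linear axis from 0) for Bax and the BH3-only genes Bcl2l11, Bbc3 and Pmaip1 in the 7 gates, with 1 point per library (day 3, 7 and 14) and 95% Poisson bars. Bcl2l11 is at its day 7 high in 6 of 7 gates, Bbc3 is highest in day 3 NK cells, and Pmaip1 is lowest in NK cells.

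Bcl2l11, encoding BIM, which survival cytokines hold in check, had its highest mean in NK cells, followed by neutrophils. It was at 267 (239 to 297), 324 (304 to 345) and 184 (161 to 210) CPM in NK cells and at 84.2 (78.3 to 90.3), 150 (143 to 158) and 99.5 (92.8 to 107) in CD8 T cells. Neutrophils were at 279, 200 and 163, Arg1 macrophages at 142, 184 and 123 and cDC2 at 85.6, 111 and 71.8. NK cells were above CD8 T cells in all 3 libraries, and CD8 T cells had 2.37-fold less (1.87 to 2.99, edgeR adjusted p = 5.48e-06). Neutrophils had 2.37-fold more than the other myeloid gates (1.88 to 2.99, edgeR adjusted p = 1.21e-06). Against the myeloid mean, CD8 T cells had 1.47-fold less (edgeR adjusted p = 0.00061). cDC2 had 1.42-fold less than Cxcl9-zero monocytes (edgeR adjusted p = 0.0346), which was lost without day 7 or day 14 (edgeR adjusted p = 0.0711 and 0.140).

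Bbc3, encoding the p53 target PUMA, was scarce. NK cells held 75, 75 and 40 UMIs, or 60.3 (47.5 to 75.6), 25.8 (20.3 to 32.4) and 32.6 (23.3 to 44.4) CPM. CD8 T cells were at 13.8, 12.3 and 18.7 CPM, and the means of the 5 myeloid gates ran from 11.4 to 17.5. NK cells were above CD8 T cells in every library. The difference was 2.41-fold (1.61 to 3.62, edgeR adjusted p = 0.00135), and the call was lost without day 3, the library with the highest NK value (edgeR adjusted p = 0.0546).

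Pmaip1, encoding NOXA, the BH3-only protein that binds MCL1 and A1, was highest in cDC2 and neutrophils and lowest in NK cells. It was at 146 (126 to 169), 156 (137 to 178) and 221 (199 to 244) CPM in cDC2 and at 171, 126 and 99.4 in neutrophils. The monocyte gates lay between 66.4 and 113 and Arg1 macrophages between 50.7 and 69.6. CD8 T cells were at 32.3, 29.5 and 38.7 and NK cells at 12.1, 9.64 and 15.5. The lymphoid values did not overlap the myeloid ones or each other. CD8 T cells had 3.13-fold more than NK cells (2.17 to 4.50, edgeR adjusted p = 3.66e-05) and 3.75-fold less than the myeloid gates (3.02 to 4.67, edgeR adjusted p = 2.77e-10). cDC2 had 2.34-fold more than Cxcl9-zero monocytes (1.81 to 3.03, edgeR adjusted p = 2.27e-05).

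Bcl2l14, encoding BCL-G, was the rarest member, with 379 UMIs over all gates against 1115 for Bbc3 and 60474 for Mcl1. Cxcl9-high monocytes held 102, 5 and 3 UMIs, in 48 of 365, 4 of 88 and 2 of 75 cells, or 22.5 (18.4 to 27.4), 4.46 (1.45 to 10.4) and 2.72 (0.561 to 7.95) CPM. Arg1 macrophages held 125, 0 and 7 UMIs, but 109 of the 125 were in 1 cell, and 17 NK cell UMIs at day 3 lay in 3 cells. At 0 UMIs a floor of 3 counts corresponds to 1.27 CPM in day 7 Arg1 macrophages and 1.03 in day 7 NK cells. None of the 6 gate comparisons called it in the fit reported here. Without the filter on low counts it was called in 4, among them Cxcl9-high over Cxcl9-zero monocytes (edgeR adjusted p = 0.00112). With the highest doublet scores removed it was called there (log2 3.88 in place of 1.90, edgeR adjusted p = 0.0036) and in cDC2 over Cxcl9-zero monocytes (log2 3.28 in place of 1.51, edgeR adjusted p = 0.00251). Without day 14 it was called in Arg1 macrophages over Cxcl9-zero monocytes (log2 4.37 in place of 1.97, edgeR adjusted p = 0.024).

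**Figure D3:**
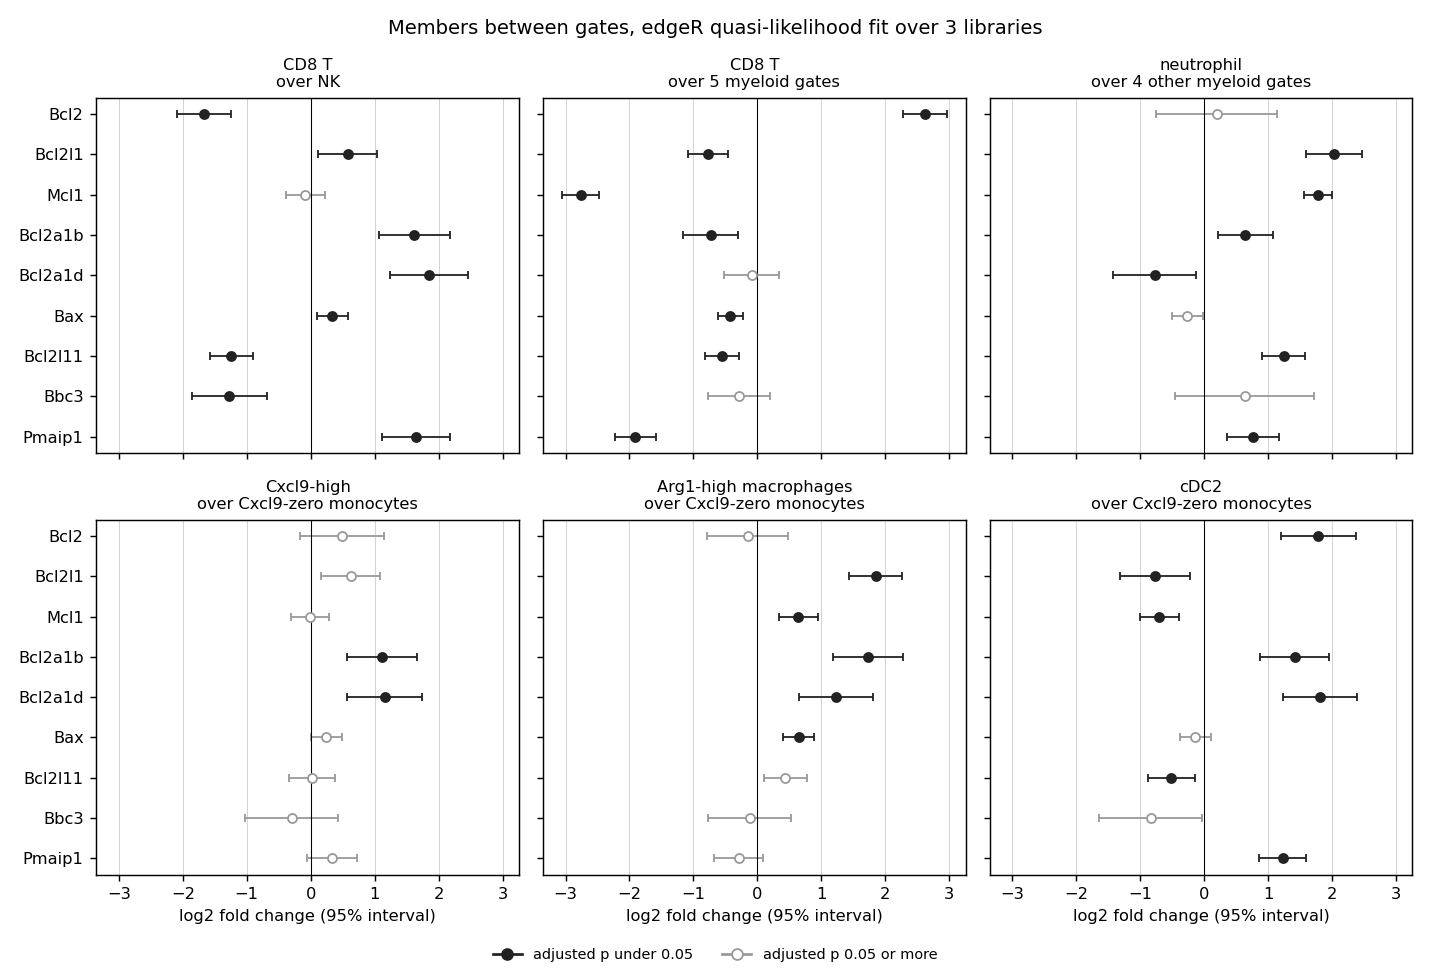
Log2 fold changes of 9 members (Bcl2l14 not shown) in 6 gate comparisons, with 95% intervals from edgeR over 3 libraries. Filled points passed an adjusted p of 0.05. Bcl2 and Mcl1 lie on opposite sides of 0 for CD8 T cells over myeloid gates, and in the Cxcl9-high over Cxcl9-zero panel only Bcl2a1b and Bcl2a1d are filled.

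Counted over the set, CD8 T cells differed from NK cells in 8 of 10 members, with 5 higher (Bcl2a1b, Bcl2a1d, Pmaip1, Bcl2l1 and Bax) and 3 lower (Bcl2, Bcl2l11 and Bbc3). Here and in the counts below Bcl2a1b and Bcl2a1d are counted apart, though the split of reads between them is uncertain. Among all genes tested 19.6% were called higher and 17.5% lower, and the median log2 difference was 0.13 over the members and 0.02 over all genes. The other genes of the pathway differed too. Of 20 survival cytokine receptors and their relays, 3 were higher in CD8 T cells and 7 lower, with Il2ra, the IL-2 receptor alpha chain, 5.07-fold higher and Il2rb, shared by the IL-2 and IL-15 receptors, 3.06-fold lower. Jak1, the kinase behind these receptors, was 2.53-fold lower and the feedback inhibitor Socs3 2.90-fold lower. Il7r, the IL-7 receptor, was 3.30-fold higher in CD8 T cells. Of 10 NF-kappaB genes 0 were higher and 7 lower, led by Icam1 at 2.24-fold, with a list median of -0.49 on the log2 scale.

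In the same comparison 4 of 14 genes of the apoptosome, caspases and their inhibitors were higher and 3 lower. Birc5, a chromosome passenger that peaks in division, was 4.17-fold higher, and Casp9, the initiator on the apoptosome, was 2.89-fold lower. Of 11 p53 and FOXO genes, 10 were tested, 1 was higher and 3 were lower, among them Sesn1 at 4.08-fold. Of 15 immediate early genes 1 was higher and 10 lower, led by Jun at 3.40-fold. Their part in the member differences was not tested.

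Against the 5 myeloid gates, CD8 T cells had 1 member higher (Bcl2) and 6 lower (Mcl1, Pmaip1, Bcl2l1, Bcl2a1b, Bcl2l11 and Bax), where 43.5% of all genes tested were higher and 30% lower. The median was -0.49 over the members and 0.23 over all genes on the log2 scale, and the latter moved by 0.21 with library sizes alone in place of TMM scaling. Each of the 7 calls held under the 12 alternatives. Among other family members Bak1, the partner of BAX, was 1.53-fold lower, Bad 1.499-fold lower and Bcl2a1a 13.1-fold lower in CD8 T cells, and Bcl2l12 was 4.20-fold higher. The apoptosis list split into 3 higher and 8 lower of 14, with Cflar, the inhibitor of caspase 8 activation, 4.11-fold lower.

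Neutrophils had 5 members higher (Bcl2l1, Mcl1, Bcl2l11, Pmaip1 and Bcl2a1b) and 1 lower (Bcl2a1d) than the 4 other myeloid gates, against 16.6% and 35.0% of all genes. The median was 0.64 over the members and -0.84 over all genes, and the latter moved by -0.20 with library sizes alone and by 0.42 with DESeq2's size factors. Bcl2a1d, at -0.77, thus lay near the middle of all genes. Its call was lost without day 7 or day 14 (edgeR adjusted p = 0.420 and 0.544), held without day 3, and was made in 4 of the 12 alternatives. Bcl2a1b (1.57-fold, edgeR adjusted p = 0.013) was not called with library sizes alone (edgeR adjusted p = 0.0574). The copy Bcl2a1a was 1.94-fold higher (edgeR adjusted p = 0.0199). The summed A1 genes had a mean of 1147 CPM in neutrophils. That mean was 1281 in cDC2, 1268 in Arg1 macrophages, 1117 in Cxcl9-high and 567 in Cxcl9-zero monocytes. Csf3r, the receptor for the neutrophil growth factor G-CSF, was 46.7-fold higher, and of 10 NF-kappaB genes 6 were higher and 1 lower, with Nfkbiz 6.74-fold and Nfkbia 4.49-fold higher. Of 7 tested other family members Bak1 was 3.44-fold and Bad 2.91-fold lower.

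Arg1 macrophages had 5 members higher (Bcl2l1, Bcl2a1b, Bcl2a1d, Bax and Mcl1) and 0 lower than Cxcl9-zero monocytes, where 14.1% and 11.4% of all genes were called. The median was 0.64 over the members and 0.07 over all genes. The dendritic list was higher here too, at 7272 to 9687 CPM, most of it Cd74 and H2-Ab1, and its part was not tested. The Mcl1 difference, 1.56-fold (edgeR adjusted p = 0.00224), was lost without day 7 (edgeR adjusted p = 0.123). Of 10 tested p53 and FOXO genes 3 were higher, with Ddit3 3.09-fold, Mdm2 1.91-fold and Cdkn1a at 1.55-fold, and 0 were lower. NF-kappaB genes split, 4 higher and 3 lower of 10, and Bid, a BH3-only protein cut by caspase 8, was 1.99-fold lower.

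cDC2 had 4 members higher than Cxcl9-zero monocytes (Bcl2, Bcl2a1b, Bcl2a1d and Pmaip1) and 3 lower (Mcl1, Bcl2l1 and Bcl2l11), where 15.1% and 14.2% of all genes were called. Members had a median of 0.55 and all genes of 0.03. Mcl1 was 1.63-fold lower (edgeR adjusted p = 0.000972). Bcl2l1 was 1.70-fold lower (edgeR adjusted p = 0.0318), which was lost without day 7 or day 14 (edgeR adjusted p = 0.227 and 0.0562). Of 10 NF-kappaB genes 4 were higher and 0 lower, with Traf1, an adaptor of TNF receptors, at 3.04-fold and Nfkb1 at 1.92-fold.

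Across days, at least 1 member passed the size rule in every gate, and several genes did so in more than 1 gate. The plot of day ratios collects them.

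**Figure D4:**
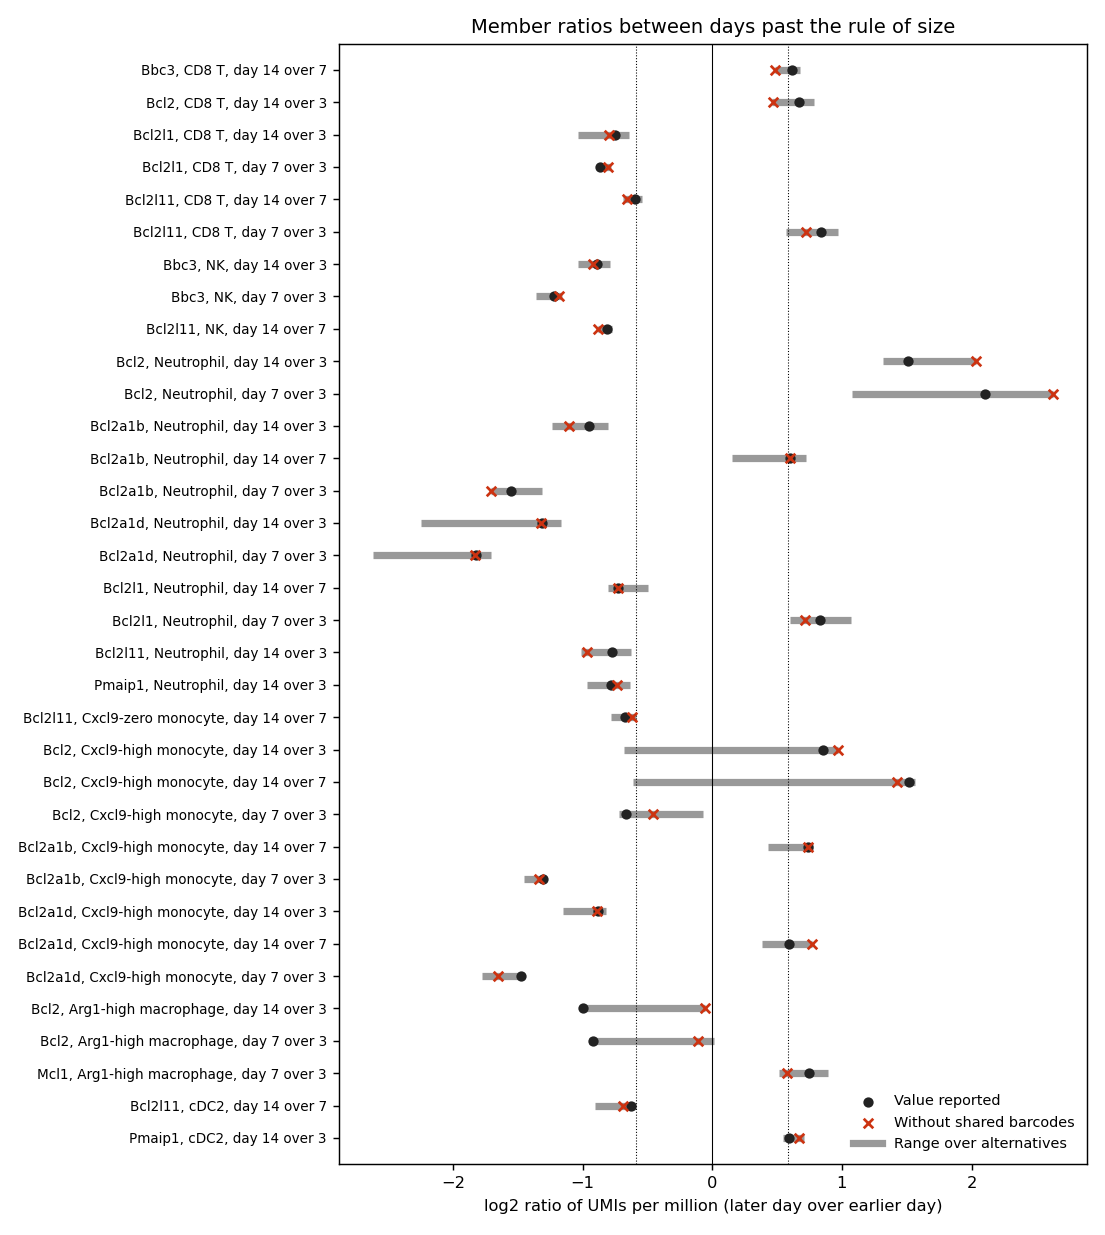
Log2 ratios of CPM between libraries for each member and gate past the size rule, without Bcl2l14. Dots are the reported ratios, crosses the ratios without shared barcodes, grey bars the range over the alternatives and dotted lines a 1.5-fold change. The Bcl2l1 ratios of CD8 T cells and the A1 ratios of Cxcl9-high monocytes between day 7 and day 3 keep their place without shared barcodes, and the Bcl2 ratios of Arg1 macrophages move to near 0.

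In CD8 T cells Bcl2l1 was highest at day 3, at 51.3 (46.8 to 56.2) CPM against 28.1 (24.8 to 31.8) at day 7 and 30.5 (26.8 to 34.5) at day 14. The day 3 interval lay above both others. The gene was 1.82-fold lower at day 7 (1.56 to 2.13) and 1.69-fold lower at day 14 (1.44 to 1.97) than at day 3, under all 11 alternatives. Bcl2l11 went the other way at first, 1.79-fold higher at day 7 than at day 3 (1.64 to 1.95), and was then 1.51-fold lower at day 14 than at day 7 (1.38 to 1.65). The first of these held in 10 and the second in 9 of 11 alternatives. In each of the 3 day comparisons 1 of 10 members was higher and 1 lower, where 6.0%, 5.87% and 4.62% of measured genes were higher and 12.0%, 3.99% and 7.07% lower.

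Bcl2 in CD8 T cells was 1.59-fold higher at day 14 than at day 3 (1.47 to 1.72), or 0.67 on the log2 scale, and stood at 0.47 without shared barcodes and at 0.46 as a mean over cells, both under the size rule. Bbc3 was 1.53-fold higher at day 14 than at day 7 (1.19 to 1.97), or 0.61, and at 0.49 without shared barcodes. Il7r rose over the same days from 37.7 to 91.6 and 95.3 CPM, past the rule, and Il2ra was at 102, 53.1 and 50.8. Cdkn1a, a p53 target, was at 118 and 60.2 CPM at days 3 and 7. Macrophage genes in this gate summed to 645, 104 and 489 CPM and NK genes to 3383, 3026 and 1988. Their part in these ratios was not tested.

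The CD8 T cell gate held cells in division and cells out of it, and the members split between them. Cells with at least 2 UMIs of Mki67 and Top2a, genes of dividing cells, were compared with cells that had 0. There were 193, 171 and 169 such cells at days 3, 7 and 14, with median depths of 28412, 26927 and 28868 UMIs, against 199, 256 and 239 cells at 9280, 9510 and 8159. Of the cycling cells 33.7%, 42.7% and 18.9% had shared barcodes, against 5.53%, 2.34% and 2.09%. The ratios in this split are within libraries, with counting intervals and no test.

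**Figure D5:**
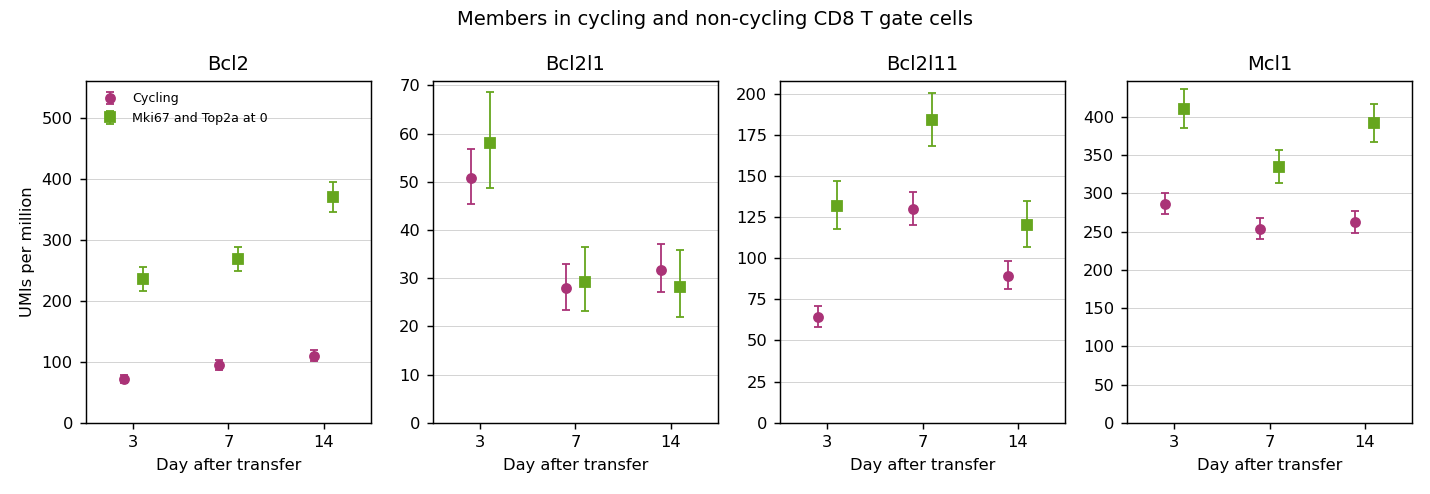
CPM of Bcl2, Bcl2l1, Bcl2l11 and Mcl1 in CD8 T cells with at least 2 UMIs of Mki67 and Top2a and in those with 0, by day, with 95% Poisson bars. Bcl2 is 2.83- to 3.37-fold lower in the cycling cells, and Bcl2l1 is near equal on both sides and lower after day 3 in both.

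Bcl2 was at 71.7, 94.8 and 110 CPM in cycling cells and at 235, 268 and 370 in the others, 3.28-, 2.83- and 3.37-fold lower. That gap in CPM was wider than any day difference of the gene in CD8 T cells. By CPM Bcl2l11 was lower in cycling cells by 2.05-, 1.42- and 1.35-fold, Mcl1 by 1.43-, 1.32- and 1.49-fold and Bbc3 by 1.92-, 2.32- and 1.89-fold. CPM is a share of all UMIs, and cycling cells were deeper. The 193, 171 and 169 cycling cells held 441, 479 and 552 Bcl2 UMIs, and the 199, 256 and 239 others 556, 742 and 903. Bcl2l11 UMIs were 396, 656 and 450 against 311, 508 and 294. The part of depth was not tested. Bcl2l1 was near equal, at 50.9 against 58.0, 27.9 against 29.3 and 31.8 against 28.3, and the summed A1 genes were at 721 against 735, 634 against 585 and 681 against 671.

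Day differences of Bcl2l1, Bcl2 and Bcl2l11 went the same way on both sides of this split. Bcl2l1 was lower at day 7 than at day 3 by 1.82-fold (1.49 to 2.24) in cycling cells and by 1.98-fold (1.49 to 2.64) in the others. Bcl2 was higher at day 14 than at day 3 by 1.53-fold (1.35 to 1.74) and 1.57-fold (1.41 to 1.75). Bcl2l11 was higher at day 7 than at day 3 by 2.02-fold (1.78 to 2.29) and 1.40-fold (1.21 to 1.61), the latter under the 1.5-fold of the size rule.

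Splits of CD8 T cells by Il7r and by Trbv14 moved Bcl2 less evenly. Trbv14 is the beta chain segment of the Pmel-1 receptor, but host T cells use it too, and cells with a Trbv14 UMI were deeper, at medians of 26176, 19389 and 25919.5 UMIs against 13172.5, 11581.5 and 8791. Cells with an Il7r UMI had 171 against 103 CPM of Bcl2 at day 3, 182 against 126 at day 7 and 215 against 180 at day 14, so the ratio was 1.65 (1.47 to 1.86), 1.44 (1.29 to 1.60) and 1.20 (1.08 to 1.33). Cells with a Trbv14 UMI were at 137 against 121 and 156 against 152 at days 3 and 7 but at 130 against 269 at day 14, 2.08-fold lower. Pmaip1 was lower in Trbv14 cells at all 3 days, at 18.7 against 37.0, 23.2 against 33.6 and 30.1 against 47.5. The part of depth and of cycling cells in the Trbv14 differences was not tested.

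In NK cells Bbc3 was 2.33-fold lower at day 7 (1.67 to 3.26) and 1.85-fold lower at day 14 (1.24 to 2.79) than at day 3, and Bcl2l11 was 1.76-fold lower at day 14 than at day 7 (1.52 to 2.04). All 3 held under the 11 alternatives. These were the members past the rule, 1 of 9 measured in each comparison, with 0 higher, where 3.27%, 3.5% and 3.98% of measured genes were higher and 5.1%, 5.48% and 8.15% lower. Bcl2 itself went from 641 to 457 and 433 CPM, under the rule. NF-kappaB genes in NK cells had 5 of 10 lower and 0 higher at day 14 than at day 3.

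Neutrophil values rested on few UMIs. Bcl2a1b was at 1350 (1227 to 1484), 460 (384 to 546) and 698 (623 to 779) CPM and Bcl2a1d at 236 (186 to 295), 66.7 (40.2 to 104) and 94.99 (68.7 to 128), on 76, 19 and 43 UMIs. Day 3 was above both later days for both genes. Bcl2a1b was 2.94-fold lower at day 7 (2.41 to 3.60) and 1.94-fold lower at day 14 (1.67 to 2.24), and Bcl2a1d 3.54-fold (2.12 to 6.20) and 2.48-fold lower (1.69 to 3.70). The sum of the 3 A1 genes was at 1863, 677 and 901, 2.75-fold (2.33 to 3.25) and 2.07-fold (1.82 to 2.35) lower. Bcl2l1 was 1.78-fold higher at day 7 than at day 3 (1.13 to 2.84) and 1.65-fold lower at day 14 than at day 7 (1.10 to 2.49), and neither held with barcodes of only 1 gate. Bcl2, on 5, 19 and 20 UMIs, was 4.30-fold (1.55 to 14.7) and 2.85-fold (1.04 to 9.70) higher at days 7 and 14 than at day 3, and 1 cell held 12 of the 19 UMIs at day 7 and 11 of the 20 at day 14. Bcl2a1b was 1.52-fold higher at day 14 than at day 7 (1.23 to 1.88), in 7 of 11 alternatives.

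Bcl2l11 and Pmaip1 in neutrophils were 1.71-fold (1.24 to 2.36) and 1.72-fold (1.14 to 2.61) lower at day 14 than at day 3. Of 8 measured members 2 were higher and 2 lower at day 7 than at day 3, 1 and 1 at day 14 than at day 7, and 1 and 4 at day 14 than at day 3. The shares of all measured genes were 9.53%, 8.01% and 7.12% higher and 11.9%, 10.6% and 12.6% lower. NF-kappaB genes had 4 of 10 lower and 0 higher at day 7, with Icam1 at 276 and 112 and Nfkb1 at 202 and 102 CPM, and immediate early genes had 10 of 15 higher, with Fos at 959 and 2899. T cell, NK and dendritic lists in this gate summed to 906.5, 720 and 1239 CPM at day 3 and to 205.4, 157 and 3994 at day 14. Their part in the A1 ratios was not tested. Without shared barcodes the Bcl2a1b ratio of day 7 to day 3 was at -1.71 on the log2 scale against -1.55.

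In Cxcl9-high monocytes the A1 genes were lower at day 7 than at day 3, Bcl2a1b by 2.47-fold (2.24 to 2.72) and Bcl2a1d by 2.78-fold (2.36 to 3.29), under all 11 alternatives. They were then higher at day 14 than at day 7, by 1.66-fold (1.48 to 1.87) and 1.51-fold (1.23 to 1.86), and neither of these held with barcodes of only 1 gate. Their sum with Bcl2a1a was at 1629, 642 and 1079 CPM. Cxcl9-zero monocytes, from the same libraries, were at 515, 542 and 644. NF-kappaB genes in the Cxcl9-high gate had 5 of 10 lower and 0 higher at day 7, with Tnfaip3, their feedback inhibitor, at 275 and 124, and 7 of 10 lower at day 14 than at day 3. Bcl2l14 was 5.05-fold lower at day 7 (2.09 to 15.9) and 8.28-fold lower at day 14 (2.75 to 40.8), where 3 UMIs were left.

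Bcl2 was also past the rule in Cxcl9-high monocytes, at 31.1, 19.6 and 56.2 CPM on 141, 22 and 62 UMIs. A single cell held 19 of the 62 at day 14, and with barcodes of only 1 gate the log2 ratios of day 14 to day 7 and to day 3 were -0.06 and -0.62 in place of 1.52 and 0.85. The lower value at day 7 than at day 3, -0.67, was past the rule in 5 of 11 alternatives and came as near 0 as -0.07. At days 7 and 14 against day 3 the gate had 0 and 1 members higher and 4 and 2 lower, and 3 higher and 0 lower at day 14 against day 7. The shares of measured genes were 5.67%, 4.84% and 3.41% higher and 6.0%, 8.58% and 7.36% lower. T cell genes here summed to 741.8, 87.5 and 524.4 CPM. Their part in the Bcl2 ratios was not tested.

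Arg1 macrophages had Mcl1 at 1379 (1341 to 1418), 2315 (2254 to 2377) and 1637 (1609 to 1666) CPM, 1.68-fold higher at day 7 than at day 3 (1.62 to 1.75), or 0.75 on the log2 scale. Without shared barcodes the ratio was at 0.57, under the size rule. Of 15 immediate early genes 9 were higher and 0 lower at day 7, with Fos at 1225 and 2271 and Egr1 at 334 and 649 CPM, and Ddit3, a stress gene, was at 40.0 and 81.6. Their part was not tested. Bcl2 was 1.89-fold lower at day 7 and 2.00-fold lower at day 14 than at day 3, at log2 ratios of -0.918 and -0.997, which became -0.11 and -0.06 without shared barcodes. Of measured members 1 was higher and 2 lower at day 7, 0 and 2 at day 14 against day 3, and 0 and 0 between days 7 and 14. The lower ones were Bcl2 and Bcl2l14, and 1 cell held 109 of the 125 Bcl2l14 UMIs at day 3. Erythroid genes summed to 1136, 0.42 and 0.40 CPM in this gate and T cell genes to 1024.6, 301.8 and 261.1. Their part in the Bcl2 and Bcl2l14 ratios was not tested. Shares of measured genes were 5.34%, 1.96% and 5.91% higher and 14.2%, 10.5% and 6.7% lower.

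Cxcl9-zero monocytes and cDC2 had the fewest ratios past the rule. In Cxcl9-zero monocytes 0 of 9 measured members were past the rule at day 7 over day 3 (4.19% of all measured genes higher, 4.29% lower) and 0 at day 14 over day 3 (4.94% higher, 6.47% lower). At day 14 over day 7 it was 1 member, Bcl2l11, 1.59-fold lower (1.38 to 1.83), where 4.74% of genes were higher and 5.64% lower. In cDC2 0 of 10 members were past it at day 7 over day 3 (4.26% of genes higher, 3.25% lower). Bcl2l11 was 1.54-fold lower at day 14 than at day 7 (1.22 to 1.97), where 5.52% were higher and 5.68% lower. Pmaip1 was 1.51-fold higher at day 14 than at day 3 (1.26 to 1.80), in 9 of 11 alternatives, where 7.08% were higher and 6.6% lower. Bcl2l11 was thus lower at day 14 than at day 7 past the rule in CD8 T cells, NK cells, Cxcl9-zero monocytes and cDC2, 4 gates that share the same 2 libraries.

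Genes most like each member were taken by Pearson's r over the 21 gate and library values, among 7855 genes. The values share libraries and depth, so r is a description. Bcl2 was most like Vgll4 (0.969), Tespa1 (0.965) and Tut4 (0.962), Mcl1 like Lilr4b (0.993) and Tiparp (0.992), and Bcl2l1 like Cd63 (0.944). Bax was most like the complement genes C1qc (0.947), C1qb (0.942) and C1qa (0.928), Pmaip1 like Zfp106 (0.923), Bcl2a1d like Ly6a (0.896) and Bcl2l11 like Zmynd11 (0.849). Bcl2a1b was most like its copy Bcl2a1a (0.847), whose transcript was identical to its own at 98.2% of aligned bases. Among members, Bcl2 and Mcl1 had an r of -0.80, Bcl2 and Pmaip1 -0.74, Bcl2l1 and Mcl1 0.79 and Bcl2a1b and Bcl2a1d 0.82.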

How the data were processed

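The deposited files hold the authors' UMI counts per gene and barcode. The submitters' processing notes name Cell Ranger 4.0.0 and mm10. The members and gene lists were chosen with earlier results of these data known. Barcodes were gated on marker UMIs, with no doublet removal beyond the gates. UMIs were summed per gate and library, and levels are CPM, UMIs per 1000000 of the gate. Day ratios carry exact conditional 95% intervals and shares Clopper-Pearson intervals, with no test at 1 library per day. Gates were compared with edgeR 4.0.16 in R 4.3.3 (TMM, filterByExpr, day as block, barcodes of exactly 1 gate), checked on simulated counts, with DESeq2 1.42.0 as an alternative. From each list up to 4 genes per comparison were named, the largest by the interval bound nearest 0 among those past the size rule or the test, with others named beside the members after their values were seen. Likeness used log2(CPM + 10) and genes with at least 500 UMIs. The planned display of proteins was left out.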

Additional observations from a re-analysis of the deposited data

Results flagged for a closer look

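Several members moved past the size rule in opposite directions in different gates of the same libraries. Each gate has 1 library per day, so the difference between gates was not tested. Values are log2 ratios of CPM.

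Bcl2 at day 7 over day 3 was at 2.10 in neutrophils, against -0.67 in Cxcl9-high monocytes and -0.92 in Arg1 macrophages. At day 14 over day 3 it was at 0.67 in CD8 T cells, 1.51 in neutrophils and 0.85 in Cxcl9-high monocytes, against -0.997 in Arg1 macrophages. The neutrophil values rest on 5, 19 and 20 UMIs at the 3 days. The day 7 value of Cxcl9-high monocytes was past the rule in 5 of 11 alternatives and came as near 0 as -0.07, and their day 14 value was -0.62 with only barcodes in 1 gate and -0.68 with the highest doublet scores removed. Without shared barcodes the Arg1 macrophage values were -0.11 and -0.06 and the CD8 T cell value 0.47.

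Bcl2l1 at day 7 over day 3 was at -0.87 in CD8 T cells and 0.83 in neutrophils, the latter past the rule in 8 of 10 alternatives. Pmaip1 at day 14 over day 3 was at -0.78 in neutrophils and 0.59 in cDC2, the latter past the rule in 9 of 11 alternatives.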

How the results depend on the processing

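Over the alternatives, 670 fitted gate differences stayed as they were, whether called or not called, 36 lost a call and 14 gained one. Of the day ratios 1965 stayed within their interval, 124 moved out of it and 6 reversed. Of the shares of cells with a UMI 72 moved and 108 did not when cells were thinned to 1500 in place of 1000 UMIs, which keeps more UMIs per cell. The reversed ratios were all Bcl2. In Cxcl9-high monocytes its log2 ratio of day 14 over day 7 was -0.063 with only barcodes in 1 gate and -0.61 with the highest doublet scores removed, and that of day 14 over day 3 was -0.62 and -0.68. In Arg1 macrophages the ratio of day 7 over day 3 was 0.013 and 0.00448 under the same 2 settings. The number of members called in Cxcl9-high over Cxcl9-zero monocytes, 2, was 0 with no day term, 1 with all barcodes of each gate, and 0 to 2 when 1 library was left out. The causes were not tested. With library sizes alone the Arg1 macrophage median of all genes moved by -0.15. The removal of shared barcodes with a larger copy elsewhere was chosen after seeing the data. Gates were compared within libraries through the day term. No paired analysis was possible between days because each day has 1 library. Depth limits Bcl2l14, Bbc3 and all neutrophil values most, and 3 libraries cannot separate the day from the pool of mice.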
